A study of Mus musculus with 16 samples.

Results

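Chemokines are small secreted proteins that attract cells of the immune system, and their receptors are G protein-coupled receptors on the cells that respond. The genes described here are all those on the array whose symbol begins with Ccl, Cxcl, Cx3cl, Ccr, Cxcr or Cx3cr and a digit, which gave 54 of 16563 genes (37 ligands and 17 receptors). A gene with several probe rows was read by its brightest, although all rows of each member tested below held the same values. The 20 genes with a mean log2 signal above 6.25, the median of all probe rows, were tested. Of these 18 were ligands and 2 were receptors, and 7790 genes in all passed the same limit. Ccl2 lay just inside it with a mean of 6.251, and Ccl3 just outside with 6.207.

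Liver RNA came from 16 male C57BL/6 mice, 4 in each of 4 groups, with 1 array for each mouse. Tg_WD mice were labelled CYP7A1 transgenic and ate a Western diet (42% of calories as fat, with 0.2% cholesterol), and WT_WD mice were wild type on that diet. Tg_Chow mice were labelled transgenic and WT_Chow mice wild type, both on standard chow. All began their diet at 12 to 14 weeks of age, ate it for 4 months, and were fasted for about 16 h before the liver was taken. A separate label gives every mouse an age of 6 months, which does not match that start and duration exactly. The wild-type mice were littermates of the transgenic ones. The labels name neither the promoter that drives the transgene nor its species.

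Cyp7a1 itself, whose enzyme limits the rate of bile acid synthesis, had a lower signal in the libraries labelled Tg. It lay between 6.20 and 7.33 in Tg_WD, between 10 and 12.41 in WT_WD, between 6.43 and 7.84 in Tg_Chow and between 11.30 and 12.27 in WT_Chow. The probe's sequence was not used here, and directions between genotypes are those of the labels. Hepatocyte markers were bright, 6 of 7 being above the limit, with Apoa1 at a mean log2 signal of 14.52 and Ttr at 14.44, while Alb was at 6.62 and Tat, at 5.94, lay under it. The mean raw signal of an array ran from 348.1 to 446.6, and the raw 5th percentile from 52.3 to 62.9. That percentile was higher in replicates 1 and 2 than in replicates 3 and 4 of 3 groups, and overlapped between them in WT_WD.

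Chemokines fall into families by the spacing of their first cysteines, and each receptor usually takes several ligands of one family. In the liver, Kupffer cells, endothelial cells, stellate cells and hepatocytes can all make chemokines, which draw monocytes, neutrophils and lymphocytes out of the blood. Many inflammatory chemokine genes are switched on by NF-kB or by interferon-gamma, whereas others, such as Cxcl12, are made continuously and hold cells in place.

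Promoter sequences are shown for 3 CXC ligands that were higher on the Western diet and for Ccl6, the gene with the largest difference between the genotypes in their response to diet. RefSeq windows on build GRCm38.p6, reaching from 250 bases before the gene start to 50 after it, were at hand for 15 of the 20 tested genes (18 windows), the others being Ccl2, Ccl4, Ccl5, Ccl7 and Cxcl16. Each window was searched on both strands for a kB motif (GGGNNTTTCC), an interferon-stimulated response element (GAAANNGAAA), a gamma-activated site (TTCNNNGAA) and an AP-1 motif (TGANTCA). The 250 bases before the start are printed, with matches in capitals.
Cxcl1, chr5:90890995-90891244, plus strand: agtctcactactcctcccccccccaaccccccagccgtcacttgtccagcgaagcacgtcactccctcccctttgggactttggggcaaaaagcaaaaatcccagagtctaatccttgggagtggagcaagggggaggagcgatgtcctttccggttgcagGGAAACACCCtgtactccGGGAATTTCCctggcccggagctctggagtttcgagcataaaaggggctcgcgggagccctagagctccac
Cxcl10, chr5:92348890-92349139, minus strand: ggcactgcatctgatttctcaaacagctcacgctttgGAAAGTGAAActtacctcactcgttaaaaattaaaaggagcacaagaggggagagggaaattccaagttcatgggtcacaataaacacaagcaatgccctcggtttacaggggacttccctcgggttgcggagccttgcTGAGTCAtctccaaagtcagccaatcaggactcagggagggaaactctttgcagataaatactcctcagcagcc
Cxcl9, chr5:92328080-92328329, minus strand: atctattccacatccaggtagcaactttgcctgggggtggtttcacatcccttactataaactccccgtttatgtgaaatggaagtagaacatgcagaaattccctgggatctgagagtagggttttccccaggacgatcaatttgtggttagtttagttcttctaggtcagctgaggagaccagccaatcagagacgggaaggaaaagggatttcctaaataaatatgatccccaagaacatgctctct
Ccl6, chr11:83593088-83593337, minus strand: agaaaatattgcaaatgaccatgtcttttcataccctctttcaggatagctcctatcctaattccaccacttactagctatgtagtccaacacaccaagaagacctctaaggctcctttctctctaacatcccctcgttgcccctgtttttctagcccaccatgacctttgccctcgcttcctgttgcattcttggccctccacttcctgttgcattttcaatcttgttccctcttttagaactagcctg
Cxcl1 held 2 kB matches, GGAAACACCC, which reads as the motif on the opposite strand, and GGGAATTTCC, whose first bases lie 89 and 71 bases before the start. A kB match occurred in 1.63% of all 32851 windows and in 2 of the 18 windows here, those of Ccl9 and Cxcl1. Cxcl10 held a response element match, GAAAGTGAAA, and an AP-1 match, TGAGTCA. The response element matched in 3.44% of all windows and in 2 of the 18, those of Ccl19 and Cxcl10. An AP-1 match occurred in 7.81% of all windows and in 4 of the 18, of Ccl27a, Ccl9, Cxcl10 and Cxcl9, where the match of Cxcl9, TGACTCA, fell after the start and is not in the printed stretch. The gamma-activated site occurred in 8.3% of all windows and in 0 of the 18, and the window of Ccl6 held no match to any of the 4 motifs. The matches do not overlap one another in the printed windows, and they describe letters, not binding.

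The Western diet in wild-type livers moved the chemokine genes most widely. Calls were made where the adjusted p lay under 0.05 in 1 limma fit of all 7790 genes with a mean for each group. In WT_WD against WT_Chow, 15 of the 20 genes were called (75%), 13 higher and 2 lower, where 19.5% of all genes tested were called, 10.3% higher and 9.18% lower. The median log2 difference was 0.51 over the 20 genes and -0.04 over all genes. Groups did not overlap for 13 of the 20, against 22.5% of all genes. Of the 15, Ccl2, Ccl7 and Cx3cl1 had a mean under the limit over the 12 arrays outside WT_WD and so were tested through their level in WT_WD. With no limit on signal 16 of all 54 genes were called, 13 higher and 3 lower, where 8.46% of 16563 genes were called.

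In Tg livers the same change of diet gave fewer calls. In Tg_WD against Tg_Chow, 3 of the 20 were called (15%), all higher, against 9.81% of all genes (4.85% higher and 4.96% lower), and the median log2 difference was 0.13, against -0.01. The genes called were Cxcl1, Cxcl9 and Ccl4, each of which was also called higher in wild-type livers. Groups did not overlap for 3 of the 20, Ccl5, Cxcl1 and Cxcl9, all of them higher in Tg_WD. In either direction that share is under the 17% of all genes (7.84% higher and 9.17% lower). It is not read as a result about the members. Without Tg_WD replicate 4, or without Tg_Chow replicate 1, 1 call was left, that of Cxcl9.

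Between genotypes on the Western diet, in Tg_WD against WT_WD, 9 of the 20 were called (45%), 8 lower and 1 higher, against 15.1% of all genes (8.29% lower and 6.77% higher). Their median log2 difference was -0.24, against 0.02 over all genes, and groups did not overlap for 8, against 23.2% of all genes. Of the 9 called, Ccl2 and Ccl7 were tested through their level in WT_WD, as described above. On chow, in Tg_Chow against WT_Chow, 2 of the 20 were called (10%), 1 in each direction, which is close to the 9.99% of all genes called there (4.58% higher and 5.4% lower). The median was 0.00 in the 20 and 0 in all genes, and groups did not overlap for 3 of the 20, against 13.5% of all genes. Without WT_WD replicate 2 the count on the Western diet was 5, and without Tg_Chow replicate 3 or 4 the count on chow was 1. From the raw scanner signals, corrected by normexp and scaled by array medians, the members called on the Western diet were 0 higher and 9 lower, and all genes called were 294 higher and 1130 lower, against 527 and 646 above. The same corrected signals with quantile normalization gave 507 higher and 664 lower. On chow median scaling gave 2 members higher and 2 lower, and 183 of all genes higher and 1205 lower, against 357 and 421 above and 354 and 421 with quantiles from the same signals.

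The difference between these genotype differences, taken as Western diet minus chow, was called for 6 of the 20 genes (30%), all lower, against 5.21% of all genes, of which 3.06% were lower. This interaction is the same number as the diet effect in Tg livers minus that in WT livers. The WT_WD arrays enter both the diet comparison in wild type and the genotype comparison on the Western diet, so a high level in WT_WD shows as higher in one and lower in the other, and these are not separate observations. Of the 6 genes called in the interaction, Ccl7 was tested through its level in WT_WD.

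**Figure D1:**
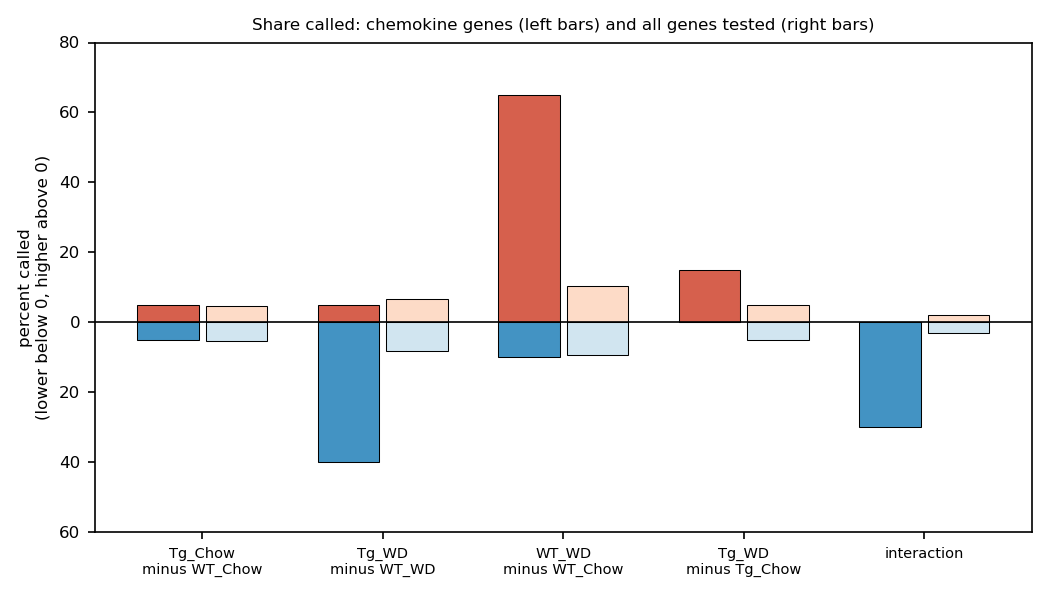
Percent of the 20 chemokine and receptor genes (left bar of each pair) and of all 7790 genes tested (right, paler bar) that were called in each of 5 comparisons, with genes called higher drawn above 0 and genes called lower below it. The left bars stand at 75% in all for WT_WD minus WT_Chow and at 10% in all for Tg_Chow minus WT_Chow.

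Ccl2 and Ccl7 bind Ccr2 and draw monocytes from bone marrow and blood. The log2 signal of Ccl7 was 6.13, 6.36, 6.07 and 6.35 in Tg_WD and 6.81, 7.0, 7.13 and 6.64 in WT_WD. On chow it was 6.09, 5.98, 5.98 and 6.31 in Tg_Chow and 6.23, 6.03, 6.02 and 6.15 in WT_Chow. All 4 WT_WD arrays lay above the other 12, and all 4 WT_Chow arrays lay at or under the limit of 6.25. The rise with diet in wild type was at least 1.57-fold against that limit (log2 difference 0.79, SE 0.11, limma adjusted p = 7.948e-05). Tg_WD was lower than WT_WD, with a log2 difference of -0.67 (SE 0.11, adjusted p = 0.0004348) whose size is uncertain because 2 of 4 Tg_WD arrays lay under the limit, and the interaction was -0.65 (SE 0.15, adjusted p = 0.01848).

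Ccl2 had a similar order at a dimmer level. Its log2 signal was 6.27, 6.36, 6.14 and 6.40 in Tg_WD and 6.51, 6.58, 6.88 and 6.41 in WT_WD. It was 6.06, 5.96, 5.94 and 6.18 in Tg_Chow and 6.15, 6.08, 5.91 and 6.19 in WT_Chow. WT_WD lay above every other array, and all 8 chow arrays lay under the limit. Against that limit the rise with diet in wild type was at least 1.28-fold (log2 difference 0.52, SE 0.10, adjusted p = 0.001277). The lower level in Tg_WD than in WT_WD, -0.30 with SE 0.10, passed narrowly (adjusted p = 0.04455) and was no longer called on leaving out any 1 of 9 arrays (replicates 1 to 3 of Tg_WD and of WT_WD, replicates 1 and 2 of Tg_Chow and replicate 2 of WT_Chow), with an adjusted p of up to 0.1535. Its interaction of -0.26 (SE 0.14) was not called.

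Ccl4 and Ccl5 attract T cells, NK cells and monocytes. Ccl4 read 6.75, 6.80, 6.94 and 6.80 in Tg_WD, against 7.61, 7.65, 7.71 and 7.46 in WT_WD. It read 6.44, 6.09, 6.29 and 6.82 in Tg_Chow, against 6.31, 6.31, 6.19 and 6.64 in WT_Chow. In each chow group 1 array lay under the limit, so the sizes of differences from chow are uncertain. The Western diet raised Ccl4 by 2.38-fold in wild type (log2 difference 1.25, SE 0.13, adjusted p = 4.213e-06), with no overlap. In Tg livers it rose by 1.33-fold (0.42, SE 0.13, adjusted p = 0.04535), the groups overlapped, and this call ended on leaving out any 1 of 11 arrays, with an adjusted p of up to 0.1298. They were all 4 of Tg_WD, replicates 1 to 3 of WT_WD and of Tg_Chow and replicate 2 of WT_Chow. Tg_WD was 1.72-fold lower than WT_WD (-0.79, SE 0.13, adjusted p = 0.0004299), Tg_Chow differed from WT_Chow by 0.05 (SE 0.13, not called), and the interaction was -0.83 (SE 0.18, adjusted p = 0.0117).

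For Ccl5 the 4 arrays gave 7.30, 7.40, 7.58 and 7.34 in Tg_WD and 7.93, 8.21, 8.59 and 7.97 in WT_WD. They gave 7.23, 7.06, 6.95 and 7.18 in Tg_Chow and 6.87, 6.84, 6.98 and 7.29 in WT_Chow. Every WT_WD array was above every other array, and every Tg_WD array above every chow array. With diet Ccl5 rose 2.27-fold in wild type (log2 difference 1.18, SE 0.13, adjusted p = 1.132e-05). The 0.30 in Tg livers (SE 0.13) was not called. Tg_WD was lower than WT_WD by 1.71-fold (-0.77, SE 0.13, adjusted p = 0.0007092), and the interaction was -0.88 (SE 0.19, adjusted p = 0.0108).

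Ccl6 and Ccl9 are rodent CC chemokines that bind Ccr1 in the mouse and are made by macrophages and other myeloid cells. In RefSeq's gene order Ccl5, Ccl9, Ccl6, Ccl3 and Ccl4 follow one another with no other protein-coding gene between them, as do Ccl2 and Ccl7. Ccl6 read 6.65, 6.57, 6.36 and 6.30 in Tg_WD and 7.30, 7.06, 7.07 and 6.78 in WT_WD. On chow it read 6.52, 6.70, 6.54 and 6.93 in Tg_Chow and 6.01, 6.07, 6.05 and 6.17 in WT_Chow. The WT_Chow arrays were the 4 lowest of the 16 and all lay under the limit.

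Ccl6 was the only member called in opposite directions between genotypes on the 2 diets. On chow it was higher in Tg_Chow than in WT_Chow by at least 1.35-fold (log2 difference 0.60, SE 0.11, adjusted p = 0.003006). On the Western diet it was lower in Tg_WD than in WT_WD by 1.5-fold (-0.58, SE 0.11, adjusted p = 0.001932). The diet raised it by at least 1.75-fold in wild type (0.98, SE 0.11, adjusted p = 1.61e-05), whereas Tg_WD minus Tg_Chow was -0.20 (SE 0.11, not called). The interaction of -1.18 (SE 0.16, adjusted p = 0.0006121) was the largest of the 20 genes in size, and since WT_Chow was near background its size is uncertain.

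Ccl9 was bright throughout and was called in no comparison. Its log2 signal ran from 10.22 to 10.71 in Tg_WD, from 10.03 to 10.66 in WT_WD, from 10.10 to 10.42 in Tg_Chow and from 9.38 to 10.35 in WT_Chow. WT_Chow was split, with 9.38 and 9.49 in replicates 1 and 2 and 10.30 and 10.35 in replicates 3 and 4. The diet difference in wild type was therefore 1.08 within replicates 1 and 2 and -0.10 within replicates 3 and 4, and the pooled 0.49 (SE 0.20, adjusted p = 0.0977) did not pass.

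Ccl19, a ligand of Ccr7 that guides dendritic cells and T cells, was called in 2 comparisons. Tg_WD arrays read 6.82, 6.59, 6.68 and 6.67, and WT_WD arrays 6.92, 7.22, 7.18 and 6.81. Tg_Chow arrays read 6.50, 6.78, 6.33 and 6.69, and WT_Chow arrays 6.64, 6.54, 6.40 and 6.59. WT_WD lay above WT_Chow without overlap, and its lowest array, at 6.81, overlapped Tg_WD. The rise in wild type was 1.41-fold (log2 difference 0.49, SE 0.11, adjusted p = 0.003289). The -0.34 between Tg_WD and WT_WD (SE 0.11, adjusted p = 0.03559) ended as a call on leaving out Tg_WD replicate 2, 3 or 4 or WT_WD replicate 2 or 3, with an adjusted p of up to 0.122. Ccl21a and Ccl21b, which encode near-identical ligands of the same receptor, were called in no comparison, with log2 differences between -0.12 and 0.12 in the 4 comparisons of groups. Signals of the Ccl21 copies cannot be told apart without the probe sequences.

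**Figure D2:**
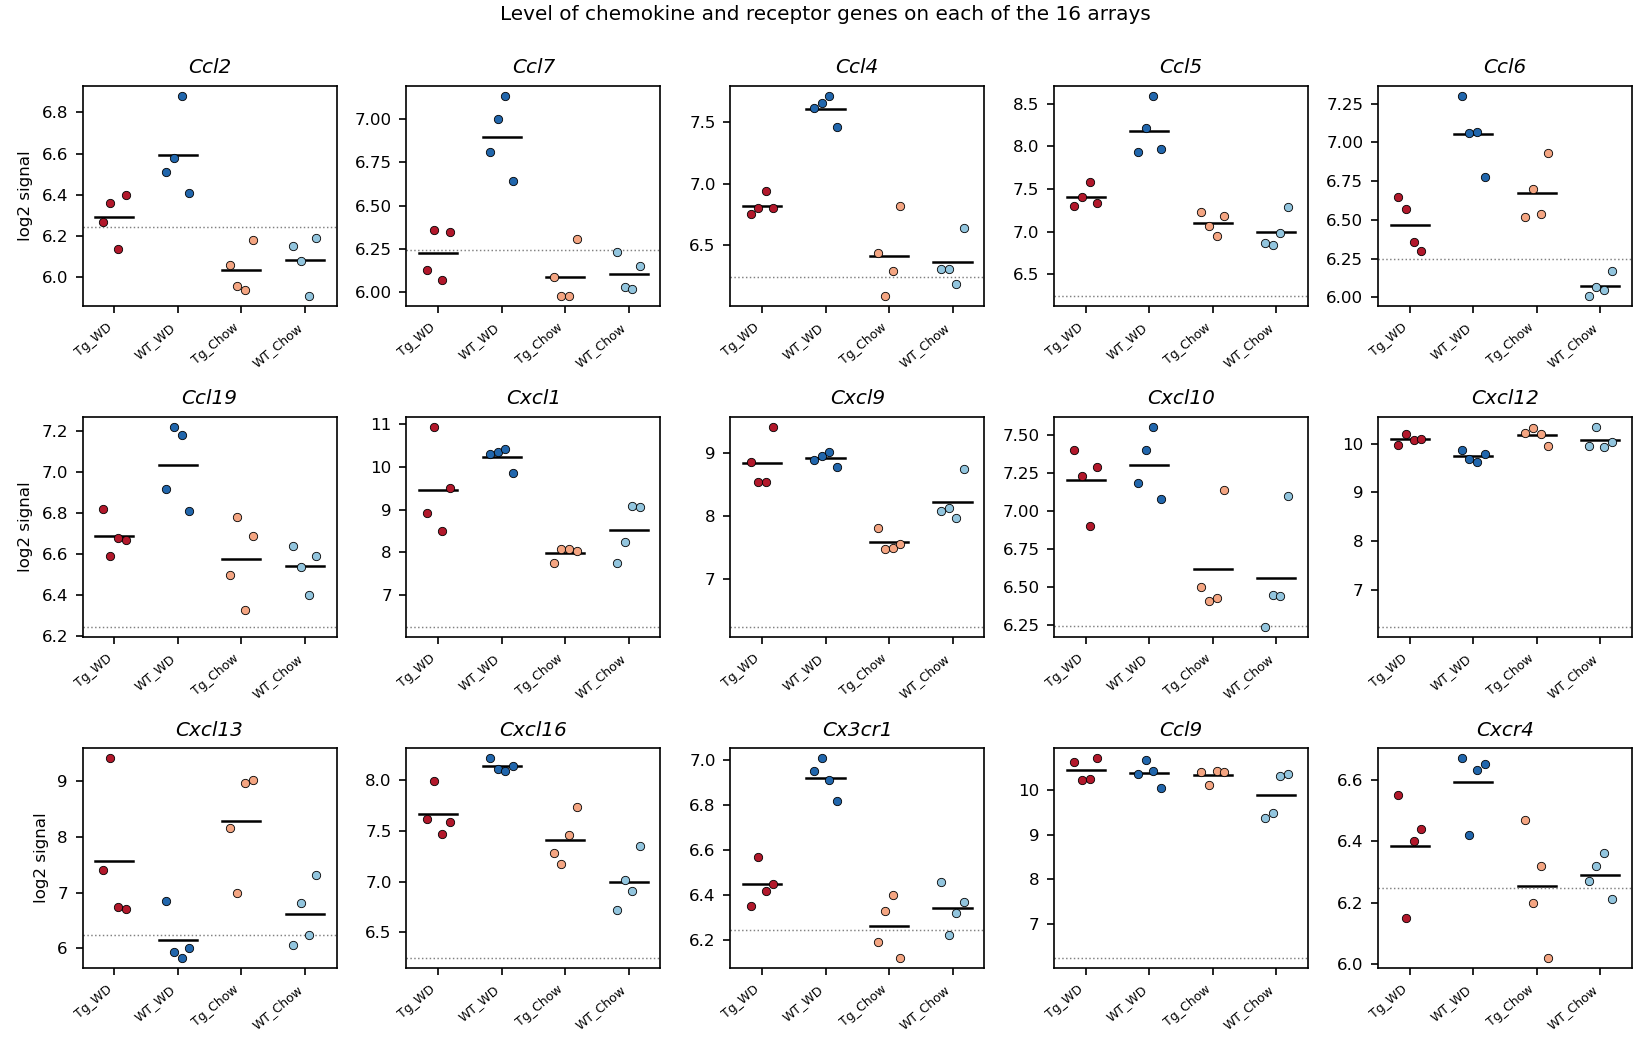
Log2 signal of 15 chemokine and receptor genes on each of the 16 arrays, by group from left to right as Tg_WD, WT_WD, Tg_Chow and WT_Chow. Points are arrays, solid lines are means of 4 arrays and the dotted line marks the limit of 6.25, and the scale differs between panels. WT_WD arrays of Ccl4 lie between 7.46 and 7.71, above the other 12.

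Cxcl1 binds Cxcr2 and draws neutrophils. Its signal varied most within Tg_WD, where it was 8.92, 10.94, 8.49 and 9.51, and was 10.30, 10.36, 10.43 and 9.87 in WT_WD. It was 7.75, 8.07, 8.07 and 8.02 in Tg_Chow and 7.75, 8.24, 9.09 and 9.05 in WT_Chow. Within each genotype all Western diet arrays lay above all chow arrays. The rise was 3.28-fold in wild type (log2 difference 1.71, SE 0.39, adjusted p = 0.005141) and 2.81-fold in Tg livers (1.49, SE 0.39, adjusted p = 0.02284). Within replicates 1 and 2 the log2 difference was 2.34 in wild type and 2.02 in Tg livers. Replicates 3 and 4 gave 1.08 and 0.96.

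The rise of Cxcl1 in Tg livers was no longer called without Tg_WD replicate 4 or without Tg_Chow replicate 1 (adjusted p up to 0.0599), and its log2 difference ran from 1.00 to 1.81 over the arrays left out. The genotypes differed by -0.78 on the Western diet and -0.55 on chow (SE 0.39 each), and neither was called. Within replicates 1 and 2 these differences were -0.4 and -0.08, and within replicates 3 and 4 they were -1.15 and -1.02. The interaction of -0.22 had an SE of 0.55. Of the 8 neutrophil markers on the array 6 lay under the limit, Csf3r, Ngp, Camp, Ltf, Mpo and Retnlg among them. S100a9 rose in WT_WD against WT_Chow by 0.47 on the log2 scale (SE 0.15, adjusted p = 0.04024), and S100a8 differed there by 0.60 (SE 0.26, adjusted p = 0.1156). The summed linear signal of the 8 markers was 610 to 818 in Tg_WD, 645 to 899 in WT_WD, 635 to 811 in Tg_Chow and 626 to 683 in WT_Chow, and their part in the result for Cxcl1 was not tested.

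Cxcl9 and Cxcl10 bind Cxcr3, which T cells and NK cells carry, and are induced by interferon-gamma. The 4 arrays of Cxcl9 gave 8.86, 8.55, 8.54 and 9.42 in Tg_WD and 8.90, 8.96, 9.03 and 8.79 in WT_WD. They gave 7.82, 7.48, 7.50 and 7.56 in Tg_Chow and 8.08, 8.13, 7.97 and 8.75 in WT_Chow. Tg_Chow was the lowest group and lay under all WT_Chow arrays, while on the Western diet the genotypes overlapped. Cxcl9 rose with diet by 2.39-fold in Tg livers (log2 difference 1.26, SE 0.18, adjusted p = 0.00062) and by 1.61-fold in wild type (0.69, SE 0.18, adjusted p = 0.01252), without overlap in either genotype. The difference between these diet effects, 0.57 (SE 0.25, adjusted p = 0.217), was not called.

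On chow Cxcl9 was 1.57-fold lower in Tg_Chow than in WT_Chow (log2 difference -0.65, SE 0.18, adjusted p = 0.03023). That call ended without Tg_Chow replicate 2, 3 or 4 or without WT_Chow replicate 4, with an adjusted p of up to 0.07767, and over all 16 arrays left out in turn its size lay between -0.73 and -0.48. On the Western diet Tg_WD minus WT_WD was -0.08, with a 95% interval from -0.45 to 0.30.

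Cxcl10 followed the diet in the same direction. Its arrays read 7.40, 7.23, 6.90 and 7.29 in Tg_WD, and 7.18, 7.40, 7.55 and 7.08 in WT_WD. They read 6.50, 6.41, 6.43 and 7.14 in Tg_Chow, and 6.24, 6.45, 6.44 and 7.10 in WT_Chow. Replicate 4 was the highest of each chow group and made both chow groups overlap with the Western diet groups. The rise in wild type was 1.67-fold (log2 difference 0.74, SE 0.19, adjusted p = 0.009625), and the 0.59 in Tg livers (SE 0.19, adjusted p = 0.05553) just missed the threshold. Genotypes differed by -0.10 on the Western diet, with a 95% interval from -0.49 to 0.30.

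Cxcl16 is a membrane-bound ligand of Cxcr6 that also takes up oxidised lipoprotein. It read 7.62, 7.99, 7.47 and 7.59 in Tg_WD and 8.22, 8.11, 8.09 and 8.14 in WT_WD. It read 7.28, 7.17, 7.46 and 7.74 in Tg_Chow and 6.72, 7.02, 6.91 and 7.35 in WT_Chow. WT_WD was the highest group without overlap, and the chow groups overlapped. The diet raised it 2.2-fold in wild type (log2 difference 1.14, SE 0.14, adjusted p = 2.514e-05), and the 0.26 in Tg livers (SE 0.14) was not called. Tg_WD was lower than WT_WD by 1.39-fold (-0.47, SE 0.14, adjusted p = 0.02697), a call that ended on leaving out Tg_WD replicate 1, 3 or 4 or WT_WD replicate 1, 2 or 4 (adjusted p up to 0.08713). Tg_Chow minus WT_Chow was 0.41 (SE 0.14, adjusted p = 0.06691), and the interaction of -0.88 (SE 0.19, adjusted p = 0.0132) was called.

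Cxcl12, the ligand of Cxcr4 that retains blood cell precursors and lymphocytes in their niches, ran the other way. Its arrays read 9.98, 10.20, 10.08 and 10.09 in Tg_WD and 9.86, 9.69, 9.63 and 9.79 in WT_WD. They read 10.22, 10.31, 10.20 and 9.95 in Tg_Chow and 9.95, 10.34, 9.94 and 10.04 in WT_Chow. WT_WD was the lowest group and overlapped with no other. It was lower than WT_Chow by 1.26-fold (log2 difference -0.33, SE 0.10, adjusted p = 0.02484), and Tg_WD was higher than WT_WD by 1.27-fold (0.34, SE 0.10, adjusted p = 0.02248).

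Both calls of Cxcl12 were narrow. The genotype call ended without Tg_WD replicate 2 or WT_WD replicate 2 or 3 (adjusted p up to 0.07096), and the diet call without WT_WD replicate 2 or 3 or WT_Chow replicate 2 (adjusted p up to 0.08182). From scanner signals scaled by array medians the genotype difference was 0.23 and was not called. Ccl25, a ligand of Ccr9 on gut-homing lymphocytes, was likewise lower in WT_WD (7.02 to 7.33) than in WT_Chow (7.30 to 7.74), with a log2 difference of -0.41 (SE 0.11, adjusted p = 0.01296) and overlapping groups. Ccl25 ran from 7.25 to 7.62 in Tg_WD and from 7.33 to 7.57 in Tg_Chow, and Tg_WD minus WT_WD was 0.33 (SE 0.11, adjusted p = 0.0504), just over the threshold.

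Cxcl13, the ligand of Cxcr5 that gathers B cells into follicles, had the widest spread among livers. Its arrays read 7.41, 9.41, 6.74 and 6.70 in Tg_WD and 6.85, 5.94, 5.83 and 6.00 in WT_WD. They read 8.15, 6.99, 8.96 and 9.01 in Tg_Chow and 6.07, 6.81, 6.24 and 7.31 in WT_Chow. Tg livers held the highest values on both diets, and the groups overlapped on both. The difference was 1.67 on chow (SE 0.53, adjusted p = 0.05286) and 1.41 on the Western diet (SE 0.53, adjusted p = 0.08193) on the log2 scale, and neither was called. Their sizes are uncertain, since 3 of 4 WT_WD and 2 of 4 WT_Chow arrays lay under the limit. Averaged over both diets, a contrast added after the values were seen, Tg minus WT was 1.54 (SE 0.37, limma adjusted p = 0.007556). It was one of 6 calls among the 20 genes (30%), where 20.1% of all genes were called. Of those 6, Ccl7 was tested through its level in WT_WD. Ccl27a, a ligand of Ccr10, was called in no comparison, though, before rounding, its arrays did not overlap in Tg_Chow (8.0 to 8.16) and WT_Chow (8.16 to 8.42), which differed by -0.22 (SE 0.08, adjusted p = 0.09917).

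Of the receptors, Cx3cr1 marks monocytes and some tissue macrophages. It read 6.35, 6.57, 6.42 and 6.45 in Tg_WD and 6.95, 7.01, 6.91 and 6.82 in WT_WD. It read 6.19, 6.33, 6.40 and 6.12 in Tg_Chow and 6.46, 6.22, 6.32 and 6.37 in WT_Chow. WT_WD was again above all other arrays. The rise in wild type was 1.49-fold (log2 difference 0.58, SE 0.08, adjusted p = 7.063e-05), and Tg_WD was 1.39-fold lower than WT_WD (-0.48, SE 0.08, adjusted p = 0.0005168). The interaction of -0.39 (SE 0.11, adjusted p = 0.0487) ended as a call on leaving out any 1 of 12 arrays, with an adjusted p of up to 0.1047, and held only without Tg_WD replicate 2, WT_WD replicate 4, Tg_Chow replicate 4 or WT_Chow replicate 1.

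Its membrane-bound ligand Cx3cl1 ran from 6.12 to 6.35 in Tg_WD, from 6.28 to 6.78 in WT_WD, from 6.11 to 6.26 in Tg_Chow and from 6.10 to 6.36 in WT_Chow. Most arrays outside WT_WD lay under the limit. Its rise of 0.29 in wild type (SE 0.09, adjusted p = 0.03925) fell to 0.19 without WT_WD replicate 1 and ended as a call on leaving out WT_WD replicate 1, 2 or 3 or WT_Chow replicate 2, 3 or 4 (adjusted p up to 0.1335). Cxcr4, the receptor of Cxcl12, ran from 6.15 to 6.55 in Tg_WD, from 6.42 to 6.67 in WT_WD, from 6.02 to 6.47 in Tg_Chow and from 6.21 to 6.36 in WT_Chow. Its rise of 0.30 in wild type (SE 0.10, adjusted p = 0.04146) ended as a call on leaving out WT_WD replicate 1, 3 or 4 or any 1 WT_Chow array (adjusted p up to 0.1049).

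**Figure D3:**
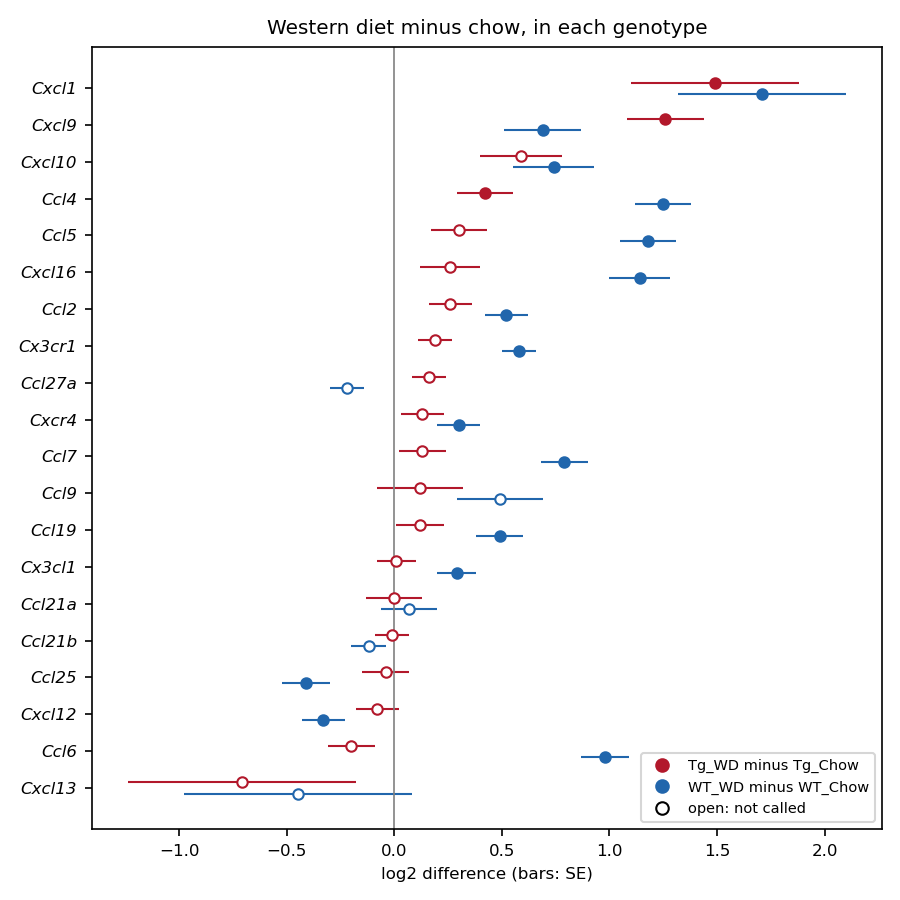
Log2 difference between Western diet and chow for each of the 20 tested genes, in Tg livers (red, upper point) and in WT livers (blue, lower point). Bars are SE from limma, filled points are called and open points are not, and 15 points are filled for WT livers and 3 for Tg livers.

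**Figure D4:**
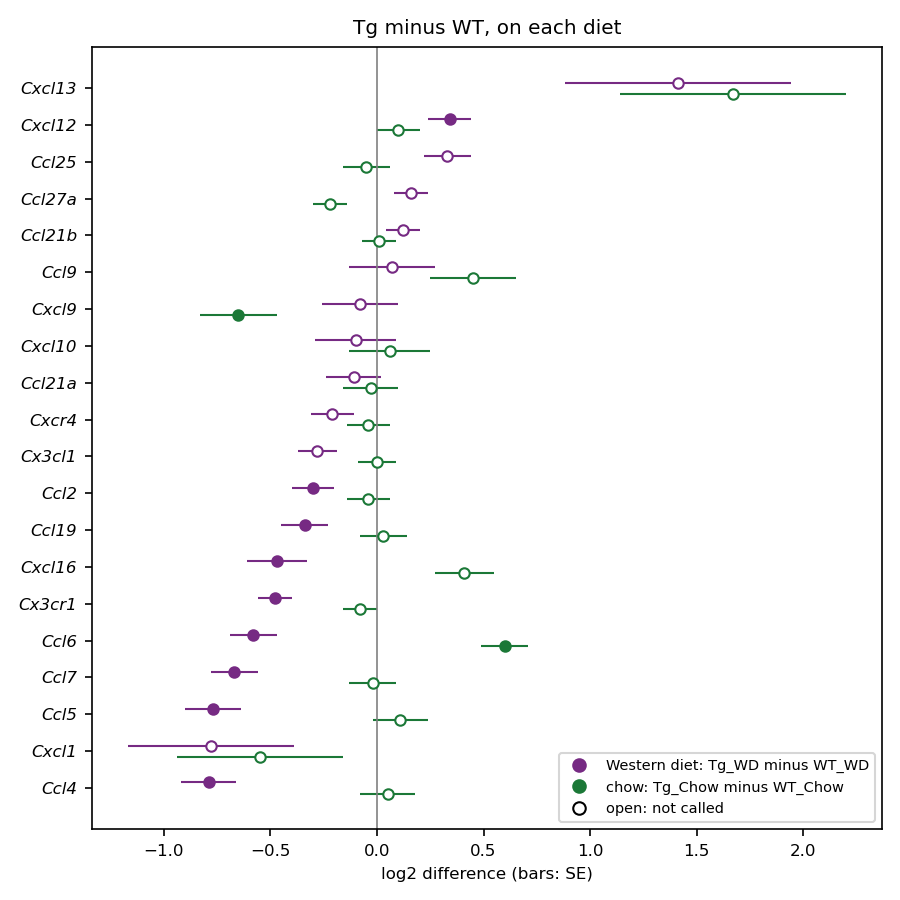
Log2 difference between Tg and WT livers for each of the 20 tested genes, on the Western diet (purple, upper point) and on chow (green, lower point). Bars are SE, filled points are called, and Ccl6 is the gene with filled points on both sides of 0, at -0.58 on the Western diet and 0.60 on chow.

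The other 34 genes, 19 ligands and 15 receptors, had mean log2 signals from 5.76 to 6.21, under the limit, where weak expression and background cannot be told apart. Among them were Ccr1, Ccr2, Cxcr2, Cxcr3, Cxcr5, Cxcr6 and Ccr7, the receptors of many of the ligands above, as well as the ligands Cxcl2, Cxcl5 and Ccl20. In the fit with no limit on signal 3 of the 34 were called in WT_WD against WT_Chow, which is close to the 8.46% of all genes called there. Cxcl14, a ligand with weak activity on monocytes, was higher by 0.42 on the log2 scale (SE 0.07, adjusted p = 0.001188), where 3 of 4 WT_Chow arrays lay under the limit. Ccl3, a macrophage inflammatory protein, was higher by at least 1.17-fold against the limit (0.43, SE 0.08, adjusted p = 0.002787). Cxcr1 was lower by at least 1.03-fold (WT_WD mean 6.07, WT_Chow mean 6.29, adjusted p = 0.0394).

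Cxcl14 was 5.91, 6.14, 6.05 and 6.18 in Tg_WD and 6.51, 6.56, 6.48 and 6.53 in WT_WD, with chow arrays between 5.92 and 6.31. WT_WD lay above the other 12 arrays, as it did for Ccl7 and Ccl4. Tg_WD was lower than WT_WD by at least 1.21-fold (-0.45, SE 0.07, adjusted p = 0.0008051), called for 1 of the 34 genes and for 6.77% of all genes in that fit. The interaction was -0.42 (SE 0.10, adjusted p = 0.0422), called for 1 of the 34 and for 2.14% of all genes. Ccl3 also rose in Tg_WD against Tg_Chow, by at least 1.05-fold (0.32, SE 0.08, adjusted p = 0.03904), the one call of the 34 there, where 4.14% of all genes were called. On chow 0 of the 34 differed between genotypes in limma's test, 1 of them at an unadjusted p under 0.05, where 3.94% of all genes were called. In each comparison the count among the 34 was near or under the share of all genes. These counts are not read as a result about the 34.

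Genes that act with chemokines were taken from lists. For these lists and the markers below, the share of all genes called was 19.5% in WT_WD against WT_Chow and 9.81% in Tg_WD against Tg_Chow. It was 15.1% in Tg_WD against WT_WD, 9.99% in Tg_Chow against WT_Chow and 5.21% in the interaction. In the same order the medians of all genes were -0.04, -0.01, 0.02, 0 and 0.02. Counts near these shares are not read as a change of a list. Of the signalling genes downstream of the receptors, 10 of the 18 on the array were tested, and 7 rose and 0 fell in WT_WD against WT_Chow, with a median log2 difference of 0.47. Rgs1, which shortens receptor signals, rose by 1.74 (SE 0.21, adjusted p = 2.471e-05), Rgs16, which acts likewise, by 1.31 (SE 0.37, adjusted p = 0.02163) and the G protein subunit Gnb1 by 0.57. Rgs1 fell by 0.78 in Tg_WD against WT_WD, one of 3 of the 10 that were lower there, with Gnb1 at -0.44 and Vav1 at -0.32 (median of the 10 -0.23). In Tg livers limma called 0 of the 10 between diets (3 at an unadjusted p under 0.05, median 0.16), and on chow 1 was called between genotypes (median 0.13), Arrb2, which uncouples receptors, at 0.26. The interaction was called lower for 3 of the 10, among them Rgs1 at -1.39 (median of the 10 -0.40).

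Enzymes that trim chemokines numbered 7 tested of 11 on the array. Mmp12, the macrophage elastase, rose by 2.59 on the log2 scale in WT_WD against WT_Chow (SE 0.19, adjusted p = 2.662e-07), with Mmp2 at 1.00 and Mmp13 at 0.81, and these were the 3 of 7 called (median 0.32). All 3 were lower in Tg_WD than in WT_WD, Mmp12 at -1.96, Mmp2 at -0.83 and Mmp13 at -0.62 (median of the 7 -0.12). Limma called 0 of the 7 between diets in Tg livers (2 at an unadjusted p under 0.05, median 0.19) and 0 between genotypes on chow (1 at an unadjusted p under 0.05, median 0.00), and 2 were called lower in the interaction, Mmp12 at -2.01 and Mmp13 at -0.62 (median -0.34).

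The NF-kB list, of subunits, feedback genes and targets other than chemokines, had 11 tested of 19 on the array. In WT_WD against WT_Chow 5 rose and 0 fell (median 0.26), with Il1b at 1.48, the adhesion molecule Vcam1 at 1.15 and the feedback gene Tnfaip3 at 0.69. In Tg_WD against WT_WD 3 were lower (median -0.26), Vcam1 at -0.70, Tnfaip3 at -0.51 and Sod2 at -0.27. On chow 2 were higher in Tg_Chow than in WT_Chow (median 0.11), Il1b at 1.16 and Nfkbia at 0.40. Limma called 0 of the 11 between diets in Tg livers (1 at an unadjusted p under 0.05, median 0.07), and 2 were called lower in the interaction, Icam1 at -0.87 and Tnfaip3 at -0.62 (median -0.28).

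The interferon-gamma list had 10 tested of 15 on the array. In WT_WD against WT_Chow 6 of the 10 were higher (median 0.32), among them Gbp3 at 0.79, Gbp2 at 0.61 and Irf1 at 0.54. In Tg_WD against Tg_Chow 5 were higher (median 0.37), among them the guanylate-binding protein gene Gbp3 at 0.93 and the immunity-related GTPase genes Igtp at 0.76 and Irgm1 at 0.70. Between Tg_WD and WT_WD 2 were higher and 1 lower (median 0.05), Igtp at 0.65, Irgm1 at 0.25 and Irf8 at -0.38. On chow limma called 0 of the 10 (4 at an unadjusted p under 0.05, median -0.03), and the interaction was higher for Igtp, at 0.98, and Irgm1, at 0.42 (median of the 10 -0.03). Ifng itself lay under the limit.

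Of the chemokines and decoy receptors with other names, listed together with the non-chemokine attractant chemerin, 5 of 11 were tested. Pf4, the platelet chemokine also named Cxcl4, rose by 0.38 in WT_WD against WT_Chow and was lower in Tg_WD than in WT_WD at -0.57. Rarres2, which encodes chemerin, rose with diet in both genotypes, by 0.40 in Tg and 0.44 in WT livers, and the scavenging receptor Ackr2 was lower in both, at -0.39 in Tg and -0.34 in WT livers. The 5 had median log2 differences of 0.25 with diet in WT, -0.01 with diet in Tg, -0.07 between genotypes on the Western diet and -0.01 on chow, and limma called 0 on chow and 0 in the interaction (median -0.05), with 1 at an unadjusted p under 0.05 in each.

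**Figure D5:**
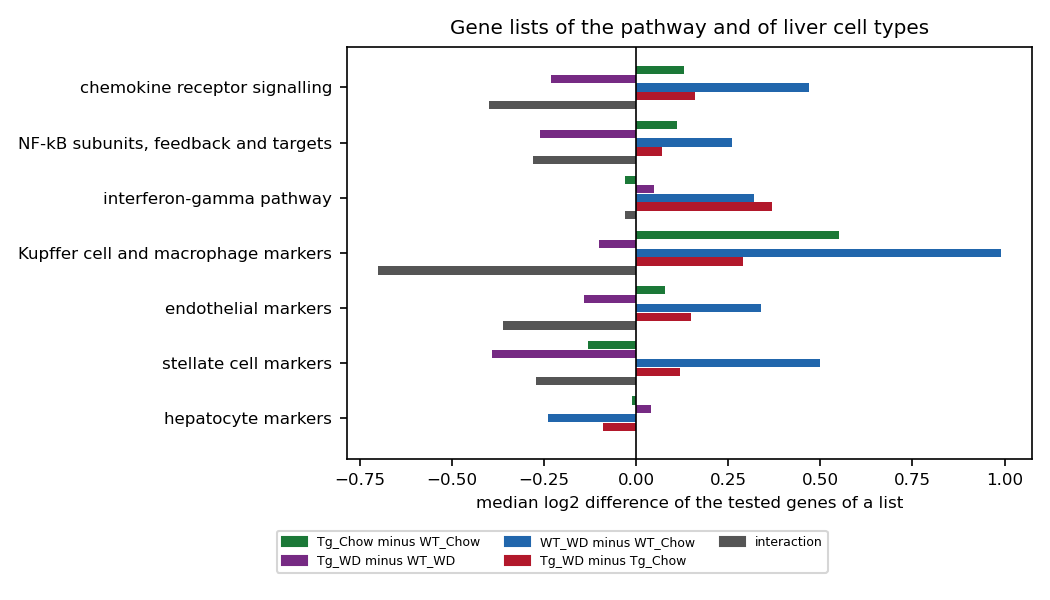
Median log2 difference of the tested genes of each of 7 gene lists (rows) in the 5 comparisons (coloured bars). The macrophage markers have the longest bar, a median of 0.99 in WT_WD minus WT_Chow, and the interferon-gamma list has medians of 0.37 in Tg and 0.32 in WT livers between diets.

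Markers of the cells that make or answer chemokines moved in some of the same comparisons. Their counts and medians stand beside the shares and medians of all genes given with the first list. In total liver RNA, fewer cells of a type and less RNA in each cell cannot be told apart. Of the Kupffer cell and macrophage markers 9 of 11 were tested (Cd5l and Itgam lay under the limit), and in WT_WD against WT_Chow 6 rose and 1 fell (median 0.99), with the lysozyme gene Lyz2 at 2.60, Vsig4 at 1.86 and Adgre1 at 1.37, and Cd163 at -0.83. Between Tg_WD and WT_WD 3 of the 9 were higher and 0 lower (median -0.10), Marco at 1.46, Cd163 at 1.15 and Timd4 at 0.71. The other 6 were not called, with Lyz2 at -1.23 (SE 0.45, adjusted p = 0.0738), Vsig4 at -0.41, Adgre1 at -0.36, Aif1 at -0.28, Cd14 at -0.10 and Clec4f at -0.05. On chow 5 were higher in Tg_Chow than in WT_Chow (median 0.55), Lyz2 at 1.46 and Vsig4 at 1.44 among them. Limma called 0 of the 9 between diets in Tg livers (1 at an unadjusted p under 0.05, median 0.29), and the interaction was lower for 3 and higher for 1 (median -0.70). Summed over the 11 markers, the linear signal was 2772 to 5231 in Tg_WD, 3910 to 5650 in WT_WD, 2628 to 4828 in Tg_Chow and 1109 to 2717 in WT_Chow.

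The monocyte marker Plac8, the one of 3 on the array above the limit, rose by 1.28 in WT_WD against WT_Chow and was lower in Tg_WD than in WT_WD at -0.71. The summed signal of the 3 was 414 to 540 in Tg_WD, 654 to 793 in WT_WD, 357 to 478 in Tg_Chow and 339 to 481 in WT_Chow, so WT_WD stood above every other group. Plac8 was not called between diets in Tg livers (0.44) or between genotypes on chow (0.13), and its interaction was called at -0.84. Stellate cell markers, all 10 of them tested, had 8 higher in WT_WD against WT_Chow (median 0.50) and 6 lower in Tg_WD against WT_WD (median -0.39), with the collagen gene Col1a1 at 0.77 and -0.82. Their summed signal was 4794 to 5355 in Tg_WD, 7251 to 7832 in WT_WD, 4243 to 5244 in Tg_Chow and 4172 to 6294 in WT_Chow. With diet in Tg livers 1 stellate marker was higher, Rgs5 at 0.40 (median 0.12). On chow limma called 0 of the 10 (1 at an unadjusted p under 0.05, median -0.13). The interaction was called lower for 1 of the 10, Dcn at -0.75 (median -0.27). Of 8 endothelial markers tested 5 rose in WT_WD against WT_Chow (median 0.34) and 1 was lower in Tg_WD than in WT_WD (median -0.14), and the summed signal of the 9 on the array was 4229 to 4656 in Tg_WD, 4149 to 5443 in WT_WD, 3892 to 4901 in Tg_Chow and 1940 to 3952 in WT_Chow. Stab1 was higher with diet in Tg livers at 0.34 (median 0.15), and Clec4g was higher in Tg_Chow than in WT_Chow at 0.79 (median 0.08). In the interaction limma called 0 of the 8 (4 at an unadjusted p under 0.05, median -0.36).

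Lymphocyte and dendritic cell markers were mostly under the limit. Of 12 T cell and NK cell markers 2 were tested (Cd3g and Prf1) and limma called 0 in any comparison (1 at an unadjusted p under 0.05, in the interaction), with Cd3d, Cd3e, Cd4 and Cd8a among those under it, and their summed signal was 871 to 920 in Tg_WD, 839 to 891 in WT_WD, 820 to 913 in Tg_Chow and 840 to 917 in WT_Chow. Of 6 B cell markers 1 was tested (Cd79b) and not called, and their summed signal was 418 to 479 in Tg_WD, 400 to 449 in WT_WD, 423 to 432 in Tg_Chow and 410 to 425 in WT_Chow. All 7 dendritic cell markers lay under the limit. Of 4 biliary markers 2 were tested and limma called 0 in any comparison, with 1 at an unadjusted p under 0.05, on chow. The hepatocyte markers had 2 of 6 lower in WT_WD against WT_Chow (median -0.24), Alb at -0.39 and Serpina1c at -0.30. The Alb signal, at a mean of 6.62, lay near the limit. Cps1 was lower with diet in Tg livers at -0.79 (median -0.09). Serpina1c was higher in Tg_WD than in WT_WD at 0.24 (median 0.04) and in the interaction at 0.33 (median 0). On chow limma called 0 of the 6 (1 at an unadjusted p under 0.05, median -0.01). The part of these cell type markers in the chemokine results was not tested.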

How the data were processed

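Total liver RNA (250 ng a sample, biotin-labelled) was hybridised to Illumina arrays, 1 for each of 16 mice, per the labels' protocols. The authors deposited log2 values of 25697 probe rows for all arrays, by a normalization that the sources used here do not state. They lay within 0.063 (median 0.0018) of the quantile-normalized log2 of the scanner intensities, which the authors also deposited, on a linear scale with no background subtraction and no detection p-values. The log2 values were the main source, and the intensities, corrected by normexp with an offset of 50, an alternative. No background was subtracted from the log2 values, so folds of dim genes can be compressed.

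Symbols came from the platform annotation, which left 1719 rows unnamed, and 42 symbols on 21 shared values were left out. Genes above the median of all row means (6.246) were tested in 1 fit of the 4 group means (limma 3.58.1 in R 4.3.3, lmFit, contrasts and eBayes, 12 residual degrees of freedom), with two-sided p-values adjusted by Benjamini-Hochberg over 7790 genes. Against a group whose 4 arrays all lay at or under 6.246, that value took the group's place and the fold is given as at least. Such a fold is a point estimate that allows for the limit on signal but not for sampling error. Errors are SE of differences. The number of arrays limits the precision. Replicate numbers did not pair the arrays, by the check given in the closing section.

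All tested members were named, with all 16 values for most of those called at least once. List members named are up to 3 called genes of largest change for each list and comparison. Names outside that rule were chosen after their values were seen. The members and lists were chosen with earlier results of these data known. The steps were tested on simulated data. Alternatives were another source, scaling, filters, row choice, replicate block, replicates 1 and 2 against 3 and 4 as a term, a trended robust test, fits of the 8 arrays compared, and leaving out each array.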

Additional observations from a re-analysis of the deposited data

Results flagged for a closer look

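Within the 80 groups of 4 arrays of the 20 tested genes, 4 had a highest or lowest array whose gap to the nearest of the others, as a share of the group's range, passed Dixon's 95% critical value, which chance passes in about 1 in 20 groups. Ccl25 was 7.33 in WT_WD replicate 4, where the others were 7.02 to 7.06. Ccl9 was 10.1 in Tg_Chow replicate 2, where the others were 10.39 to 10.42. Cxcl1 was 7.75 in Tg_Chow replicate 1, where the others were 8.02 to 8.07. Cxcl10 was 7.14 in Tg_Chow replicate 4, where the others were 6.41 to 6.5.

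For 6 genes the genotype difference on the Western diet differed from that on chow in limma's interaction test, lower on the Western diet in each. The log2 values were -0.83 for Ccl4 (adjusted p = 0.0117), -0.88 for Ccl5 (adjusted p = 0.0108), -1.18 for Ccl6 (adjusted p = 0.0006121), -0.65 for Ccl7 (adjusted p = 0.01848), -0.39 for Cx3cr1 (adjusted p = 0.0487) and -0.88 for Cxcl16 (adjusted p = 0.0132). Each had the same sign within replicates 1 and 2 and within replicates 3 and 4.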

How the results depend on the processing

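None of the 35 calls of a gene in a comparison changed direction under any alternative run. The same 35 calls held with replicates 1 and 2 against 3 and 4 as a term, and with a trended robust test. They also held from the scanner intensities with quantile normalization, which before correction lay within 0.063 of the main values. With the mean of a gene's rows they held too, but all rows of each tested member carried the same values. That run could change a member's call only through the other genes. From scanner signals corrected by normexp and scaled by medians, 4 genes were called on chow between genotypes in place of 2, Ccl27a and Cxcl13 being the others, and the median of all genes moved by -0.09 there and by -0.08 on the Western diet. The stricter filter (60th percentile) left 12 members, with 9 called for diet in WT and 3 in the interaction. Fits of the 8 arrays compared lost 4 of 29 calls, of Cxcl9 on chow, which left 1 gene called there, Ccl2 in Tg_WD against WT_WD, Cx3cl1 in WT_WD against WT_Chow and Ccl4 in Tg_WD against Tg_Chow, and have no counterpart for the interaction. With no filter 6 of the 35 calls were lost, of Ccl19 and Ccl2 in Tg_WD against WT_WD, Cx3cl1 and Cxcr4 in WT_WD against WT_Chow, Ccl4 in Tg_WD against Tg_Chow, and the interaction of Cx3cr1.

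Without 1 array, counts ran from 1 to 3 for genotype on chow (1 without Tg_Chow replicate 3 or 4), from 5 to 11 for genotype on the Western diet (5 without WT_WD replicate 2), from 12 to 16 for diet in WT, from 1 to 4 for diet in Tg (1 without Tg_WD replicate 4 or Tg_Chow replicate 1), and from 5 to 6 for the interaction. Calls of Ccl2 in Tg_WD against WT_WD, Ccl4 in Tg_WD against Tg_Chow and the interaction of Cx3cr1 ended on leaving out any 1 of 9, 11 and 12 arrays. The calls of Ccl4, Ccl5, Ccl6, Ccl7 and Cx3cr1 for diet in WT and for genotype on the Western diet held without any 1 array.

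Same-numbered arrays of different groups correlated between -0.21 and 0.24 in their deviations from the group means (9 of 24 pairs over 0.1), and 4 of 16 arrays correlated best with their own number, so the numbers did not pair the arrays. With the replicate block 2 genes were called between genotypes on chow and 9 on the Western diet, 15 between diets in WT livers and 3 in Tg livers, and 5 in the interaction, without the calls of Ccl2 on the Western diet and Cx3cr1 in the interaction and with one of Cx3cl1 on the Western diet. The causes of these changes were not tested. Signals near background limit Ccl2, Ccl6, Ccl7, Cx3cl1, Cx3cr1, Cxcr4 and Cxcl13, and also Ccl4 on chow.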

Other observations

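Averaged over both diets, a contrast added after the values were seen, Tg livers differed from WT livers in 6 of the 20 genes (30%), where 20.1% of all genes were called. Of the 6, Ccl7 was tested through its level in WT_WD. The count is not read as a result about the 20 genes as a set. Cxcl13 was among the 6. Its 8 Tg arrays ran from 6.70 to 9.41 with a mean log2 signal of 7.92, and its 8 WT arrays from 5.83 to 7.31 with a mean of 6.38. The log2 difference was 1.54 (SE 0.37, limma adjusted p = 0.007556), and lay between 1.23 and 1.76 without any 1 array, with an adjusted p of up to 0.01778. The groups overlapped, as on each diet alone. Cxcl12 was higher by 0.22 (SE 0.07, adjusted p = 0.03091), while Ccl4, Ccl5, Ccl7 and Cx3cr1 were lower, with log2 differences from -0.37 to -0.28. Ccl4, Ccl5 and Ccl7 differ between genotypes in another way on each diet, as the interaction shows, so their averages describe neither diet. For Cx3cr1 the interaction passed narrowly (limma adjusted p = 0.0487) and ended as a call on leaving out any 1 of 12 arrays.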
